A study of Homo sapiens with 30 samples.

Results

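F8, the gene of coagulation factor VIII (ENSG00000185010, chrX:154835788-155026940, minus strand, GRCh38, protein coding, 26 exons in the full-length transcript), was followed as 1 of the 16975 genes listed for 30 human cell libraries, in which it had 1 row. Its row was found by its symbol, with no threshold on a measured value. The libraries were made by 3' RNA-seq, which counts transcripts from reads at their 3' ends, from untreated cultures grown to about 70% confluency. They fell into 10 groups of 3. In 8 groups CRISPR had been aimed at 1 gene each of HEK28, a HEK293 (human embryonic kidney) line that, per the series' design text, secretes large amounts of factor VIII. The targets were 4 genes of the secretory pathway (LMAN1, MCFD2, CANX and CALR) and 4 of autophagy (ATG7, GABARAP, GABARAPL1 and GABARAPL2). The remaining groups were HEK28 itself, without a knockout, and the parental HEK line, which was placed by its title and genotype because its cell line label also reads HEK28. The design asks how each knockout affects the secretion or activity of factor VIII. The sources used here do not give the promoter or copy number of the introduced F8 sequence, whether a knockout line was 1 clone, or whether the 3 samples of a group were separate cultures. The p-values over libraries therefore set differences between groups only against the spread of samples within groups, and that spread may be technical.

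Factor VIII circulates bound to von Willebrand factor and, once activated, is the cofactor with which factor IXa activates factor X. Its loss causes haemophilia A. The body's main source is endothelium, above all that of the liver sinusoids, while kidney cell lines are used to make the recombinant protein. In the endoplasmic reticulum the large, heavily glycosylated protein meets the lectin chaperones calnexin (CANX) and calreticulin (CALR) and the chaperone BiP (HSPA5), and LMAN1 with MCFD2 forms the cargo receptor that carries it towards the Golgi. GABARAP, GABARAPL1 and GABARAPL2 are ATG8-family proteins of autophagosomes, which ATG7, an activating enzyme, helps attach to lipid. The table holds the F8 transcript and no measure of the protein.

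F8 reads can arise from the introduced sequence or from the chromosomal gene, and the table does not separate the 2 sources. No introduced F8 is named for the parental line. The RefSeq start regions of the chromosomal gene (GRCh38.p14, 250 bases before to 50 after each start, 300 bases) are shown because they are the annotated starts of the gene that gave almost no reads in that line. Both lie on the minus strand and are printed 5′ to 3′ with each CG pair in capitals.
F8, start in exon 1, chrX:155022674-155022973: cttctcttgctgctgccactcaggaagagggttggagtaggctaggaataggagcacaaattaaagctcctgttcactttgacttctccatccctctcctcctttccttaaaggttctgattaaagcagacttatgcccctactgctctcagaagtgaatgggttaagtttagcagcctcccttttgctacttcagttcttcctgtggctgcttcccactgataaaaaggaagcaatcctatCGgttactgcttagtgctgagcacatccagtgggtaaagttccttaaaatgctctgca
F8, start in intron 22, chrX:154886268-154886567: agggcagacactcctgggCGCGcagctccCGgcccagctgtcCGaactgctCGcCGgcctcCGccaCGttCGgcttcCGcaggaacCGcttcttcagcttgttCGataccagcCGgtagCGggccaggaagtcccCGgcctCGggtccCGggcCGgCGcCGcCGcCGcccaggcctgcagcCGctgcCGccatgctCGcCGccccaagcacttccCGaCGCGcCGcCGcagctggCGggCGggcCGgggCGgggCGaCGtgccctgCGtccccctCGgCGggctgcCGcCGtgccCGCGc
The exon 1 region had a GC content of 46% and 1 CG pair, and the intron 22 region had 77.7% and 44 CG pairs, against medians of 58.7% and 14 over 35116 promoters of this length. Neither holds TATAAA on either strand, a word found in 11.5% of those promoters. The sequence that drives F8 in HEK28 is not given in the sources used here.

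Libraries held between 148100 reads (HEK28 replicate 1) and 3893447 reads (GABARAPL2 knockout replicate 1) in genes, with a median of 603807.5. The targeted transcript was lower than in HEK28 in 4 lines by the limma test (CALR, LMAN1, CANX and MCFD2, log2 differences of -3.25 to -0.88). It stood -1.07, -0.99 and -0.48 from HEK28 in the GABARAP, ATG7 and GABARAPL1 knockouts, which did not pass. In the line labelled GABARAPL2 knockout, GABARAPL2 was 0.34 above HEK28 (limma adjusted p = 0.632) and -0.73 from the other 7 knockouts (limma adjusted p = 0.293), on 316 reads. Its level in HEK28 had an SD of 1.62 on 51 reads. The mean of the line, 6.28, lay below the parental mean of 6.85, while HEK28 replicate 3 alone stood 0.90 above the parental mean. The sign of the 0.34 therefore rests on HEK28 replicates 1 and 2. The transcript does not check these 4 labels, and the line labelled GABARAPL2 knockout is called by its label below. HEK28 replicates 1 and 2 stood apart. Where the levels of the knockout libraries and the depth led to a prediction of 10 reads or more, 2.74% and 3.46% of transcripts had less than 10% of the predicted reads in them, against 0.117% in HEK28 replicate 3 and 0.0159% to 1.06% in the knockout libraries. F8 differences and the counts of the gene lists further below are therefore also given without those 2 libraries. These fits lend the spread of the remaining groups to the lone HEK28 library. The share of all genes that passed in them was not counted, so list counts with HEK28 replicate 3 alone have no share beside them. The target differences and marker counts of this paragraph rest on all 3 HEK28 libraries unless stated. Of the markers of HEK293 cells all 8 were listed and 7, all but NEFM, had recovered reads. Their summed level was 1822 to 2890 CPM in knockout libraries, 2295 to 3028 CPM in HEK28 and 1096 to 1141 CPM in the parental line. NEFL gave 1769 of the 2344 summed reads in HEK28. Of 7 tested markers 3 were higher in HEK28 than in the parental line and 1, KRT18, lower (-1.38), beside 16.7% and 15.1% of all genes. In the pooled knockouts against HEK28, 0 were higher and 2, NEFM and NEFL, lower (-0.55 and -0.30), beside 17.4% and 7.29%. With HEK28 replicate 3 alone NEFM and NEFL stood at -0.24 and -0.03. Among 10 endothelium markers PECAM1 and CLEC4M were listed, with 149 reads over the knockouts, 9 in HEK28 and 10 in the parental line. Of 8 hepatocyte markers 0 were listed. Of 6 blood cell markers 5 were listed, with 1561, 37 and 30 reads, and 0 passed between HEK28 and the parental line or between the pooled knockouts and HEK28 at a limma adjusted p under 0.05.

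F8 was high in every HEK28-derived library and had at most 2 reads in a parental one. In bulk RNA, fewer cells with a transcript and less RNA per cell cannot be told apart. F8 had 37321 reads in the 24 knockout libraries (269 to 5409 per library), 592 in HEK28 and 2 in the parental line. F8 made up 9.19 to 22.3 of every 10000 reads in the knockout libraries, 5.78 to 8.00 in HEK28 and 0 to 0.0333 in the parental line. The level used from here on is the deposited log2 value, which is per unit of length and library size and known up to a constant.

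The CALR knockout stood highest, with F8 levels of 9.76, 9.93 and 9.73 in its 3 libraries. The GABARAPL1 knockout followed with 9.48, 9.47 and 9.42, and the MCFD2 knockout with 9.22, 9.61 and 9.18. All 3 CALR knockout libraries lay above every other library of the series, while MCFD2 knockout replicate 2 lay above the GABARAPL1 knockout libraries and MCFD2 knockout replicates 1 and 3 below them. The GABARAP knockout had F8 levels of 9.12, 9.22 and 9.21, the CANX knockout 9.23, 9.11 and 9.09, and the LMAN1 knockout 8.92, 8.97 and 9.17. These 3 lines overlapped one another. The ATG7 knockout had 8.88, 8.89 and 8.79 and the GABARAPL2 knockout 8.86, 8.75 and 8.82, and they overlapped each other and lay below the libraries of the other 6 knockouts. HEK28 had 8.35, 8.01 and 8.49, below all 24 knockout libraries. The parental libraries stood at 0.24, -0.73 and 0.76 on 0, 0 and 2 reads, values that the offset of 0.5 reads and the depth set where the read count is 0.

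As means ± SD (n = 3 libraries), the order of F8 levels was CALR knockout 9.81 ± 0.11, GABARAPL1 knockout 9.46 ± 0.03, MCFD2 knockout 9.34 ± 0.24, GABARAP knockout 9.19 ± 0.06 and CANX knockout 9.14 ± 0.07. It went on with LMAN1 knockout 9.02 ± 0.13, ATG7 knockout 8.85 ± 0.05, GABARAPL2 knockout 8.81 ± 0.06, HEK28 8.29 ± 0.25 and the parental line 0.09 ± 0.76. No neighbours in this order passed a test against each other in the model of all 30 libraries until the step from HEK28 to the parental line. The widest gap among the others, 0.52 between the GABARAPL2 knockout and HEK28, gave an adjusted p of 0.0881 with limma, and the gap of 0.35 between the CALR and GABARAPL1 knockouts gave 0.564.

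F8 was 8.20 higher on the log2 scale in HEK28 than in the parental line (8.29 ± 0.25 and 0.09 ± 0.76, SD, n = 3 each; 95% interval 7.74 to 8.66, limma adjusted p = 1.94e-18). It had the smallest p of all 11337 tested genes, and 0% of them had a higher difference. Of all tested genes, 16.7% passed upwards in HEK28 and 15.1% downwards. The fitted difference depends on the offset, since the parental line had 2 reads, and was 6.65 with an offset of 2 reads in place of 0.5. As a ratio of reads corrected for library size, HEK28 stood 417 times above the parental line (95% counting interval 115 to 3453), and the 24 knockout libraries 844 times (234 to 6973). These intervals cover counting error only. With 3 libraries against 3, the exact permutation test cannot go below a two-sided p of 0.1, which it gave. Without HEK28 replicates 1 and 2 the difference remained beyond the threshold.

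F8 had the most reads of any transcript that was in every HEK28-derived library and had at most 2 parental reads. At least 1 read in each of the 27 HEK28-derived libraries and at most 2 reads in all in the parental line were found for 63 of 16900 genes with resolved reads, of which 2 lay on chromosome X. Over those 27 libraries F8 had a mean of 1404 reads per library. GSTZ1, an enzyme of tyrosine breakdown, was next by reads with a mean of 39.4 and had 0 parental reads. ZNF358, a zinc finger gene, averaged 37.6 reads per library with 2 parental reads, and ANKRD18CP, a pseudogene, 25.6 with 1. This selection used the levels themselves, so the numbers describe it.

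All 8 knockouts together had more F8 transcript than HEK28. The mean was 9.20 ± 0.33 over the 24 knockout libraries and 8.29 ± 0.25 over the 3 HEK28 libraries, a log2 difference of 0.91 or 1.88-fold (95% interval 0.57 to 1.26, limma adjusted p = 0.000677), when 17.4% of tested genes were higher and 7.29% lower. An exact two-sided permutation test over the libraries gave p = 0.000342, the smallest that the 2925 splits allow, although libraries of 1 line are not independent of each other. A complete separation of the 24 knockout libraries above HEK28, which F8 had, was found for 85 tested genes (0.75%), and 16.5% of the tested genes had a larger difference than F8. The knockouts exceeded HEK28 in the median gene by 0.11, a shift that turned to -0.07 under quantile normalisation, where the F8 difference was 0.86, and to -0.07 with equal medians, where the F8 difference was 0.73. The split of all tested genes moved with it, to 1403 higher and 1339 lower under quantile normalisation, against 1974 and 826 for the deposited values. Without HEK28 replicates 1 and 2 the pooled F8 difference was 0.71 and no longer passed (limma adjusted p = 0.227).

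Taken one by one, 5 knockouts passed against HEK28 in the model of all 30 libraries. The share of all tested genes that were higher was 12% for CALR, 6.96% for GABARAPL1, 10.5% for MCFD2, 4.01% for GABARAP, 12.3% for CANX, 4.44% for LMAN1, 8.26% for ATG7 and 18.3% for GABARAPL2. The F8 differences ran from 1.52 with CALR targeted (95% interval 1.06 to 1.98, limma adjusted p = 8.97e-05) over 1.17, 1.05 and 0.90 with GABARAPL1, MCFD2 and GABARAP targeted to 0.86 with CANX targeted (0.39 to 1.32, limma adjusted p = 0.0121). The knockouts of LMAN1, ATG7 and GABARAPL2 stood 0.73, 0.56 and 0.52 above HEK28, with intervals that began at 0.27, 0.10 and 0.06, and did not pass over all genes (limma adjusted p = 0.0534, 0.0973 and 0.0881). They were 0.53, 0.36 and 0.31 without HEK28 replicates 1 and 2, and 0.59, 0.41 and 0.26 with equal medians (limma adjusted p = 0.122, 0.217 and 0.408). The GABARAP call ended without any 1 of its 3 libraries or without HEK28 replicate 1 or 2 (limma adjusted p = 0.0593 to 0.0997, differences of 0.76 to 0.93), and the CANX call without HEK28 replicate 2 (0.72, limma adjusted p = 0.0709). Without HEK28 replicate 3 the LMAN1, ATG7 and GABARAPL2 knockouts passed at 0.84, 0.67 and 0.62. The 8 comparisons share the 3 HEK28 libraries.

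Which of these passed turned on the parental libraries, which take no part in them. All groups of the model share 1 spread per gene, and F8 had a residual SD of 0.27 over the 10 groups but 0.11 over the 24 knockout libraries alone and 0.13 over the 27 HEK28-derived libraries. The parental values on 0, 0 and 2 reads have an SD of 0.76. Without the 3 parental libraries, an alternative added after the data were seen, F8 passed in all 8 knockouts with the same differences, the highest limma adjusted p being 0.0112. The share of all genes that passed in that fit was not counted, and the shares given above belong to the model of 30 libraries. In the opposite direction, the limma fits on only the 6 libraries of a comparison gave F8 an adjusted p from 0.0644 (CALR) to 0.606 (GABARAP) among the 5 lines that had passed. Without HEK28 replicates 1 and 2, F8 passed in 1 of the 8, the CALR knockout.

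**Figure D1:**
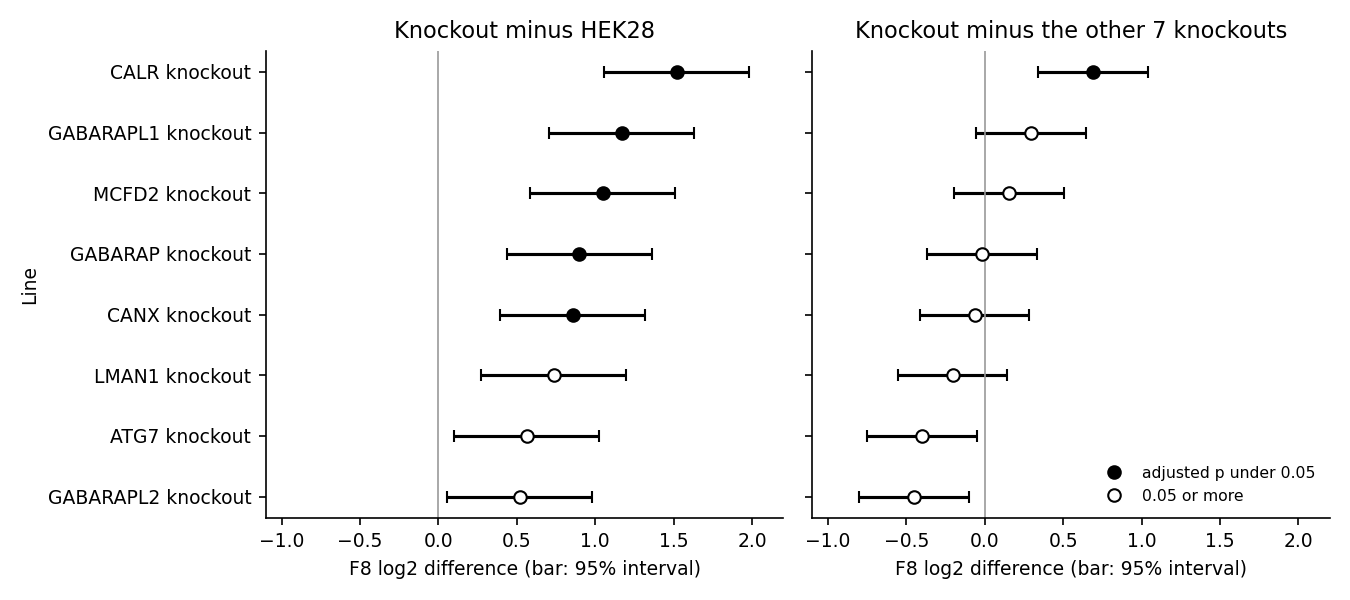
F8 log2 difference of each knockout line from HEK28 (left) and from the mean of the other 7 knockouts (right), with 95% intervals from the limma model of 30 libraries; filled points have an adjusted p under 0.05. All 8 differences from HEK28 are above 0 and 5 pass, while only the CALR knockout, at 0.69, passes against the other knockouts.

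The knockouts differed in F8 among themselves. The moderated F test over the 8 lines gave F = 4.36 (limma adjusted p = 0.0316), in a series where 13.1% of tested genes passed that test, and 3.63e-05 on the 24 knockout libraries alone, where 26.6% did. On the 30 libraries the F call ended without any 1 of the CALR or GABARAPL2 knockout libraries or without ATG7 knockout replicate 3 (F = 3.22 to 3.93, limma adjusted p = 0.0548 to 0.0992). Set against the other 7, the CALR knockout was higher by 0.69 (95% interval 0.34 to 1.04, limma adjusted p = 0.0252), a comparison in which 1.44% of all genes were higher. Upward calls made up 1.61% of all genes for MCFD2, 0.794% for GABARAP, 0.617% for LMAN1, 0.529% for CANX, 0.309% for ATG7, 0.132% for GABARAPL1 and 2.55% for GABARAPL2. The F8 level of these 7 lines lay -0.45 to 0.29 from that of the rest and did not pass. The line labelled GABARAPL2 knockout at -0.45 (-0.80 to -0.10, limma adjusted p = 0.14) and the ATG7 knockout at -0.40 (-0.75 to -0.05, limma adjusted p = 0.292) were the lowest, and both passed without the parental libraries (limma adjusted p = 0.0112 and 0.0395). The share of genes lower in those comparisons was 1.53% and 1.13% in the model of 30 libraries and was not counted without the parental ones. The CALR call ended when any 1 of the 3 CALR knockout libraries was left out of the 30 (limma adjusted p = 0.0964 to 0.195, differences of 0.63 to 0.73).

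Of the 28 pairs of knockouts, 2 passed in the model of 30 libraries, against 2.47% of all gene and pair combinations, or 2.21% when adjusted over all pairs at once. Both set the highest line against the lowest ones. F8 was 1.00 higher in the CALR knockout than in the line labelled GABARAPL2 knockout (9.81 ± 0.11 and 8.81 ± 0.06, n = 3 each; limma adjusted p = 0.0103 over all genes, 0.0162 over all genes and pairs). It was 0.96 higher in the CALR than in the ATG7 knockout (limma adjusted p = 0.018, and 0.0219 over all genes and pairs). Without CALR knockout replicate 2, 0 of the 28 pairs passed, and 1 passed without CALR knockout replicate 1 or ATG7 knockout replicate 1 or 3. On the 24 knockout libraries alone 11 pairs passed, against 5.56% of all gene and pair combinations, with the same differences and narrower intervals. They were the CALR knockout against each other line but GABARAPL1, the GABARAPL1 and MCFD2 knockouts against GABARAPL2 and ATG7, and GABARAP against GABARAPL2. In that fit the lowest of the 11 differences was 0.38 (0.15 to 0.61, limma adjusted p = 0.0275). For pairs that did not pass the interval still bounds the difference. GABARAPL2 minus ATG7 was -0.04 (-0.27 to 0.19), CANX minus GABARAP -0.04 (-0.27 to 0.19) and LMAN1 minus MCFD2 -0.31 (-0.55 to -0.08, limma adjusted p = 0.0779), all on the 24 libraries.

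**Figure D2:**
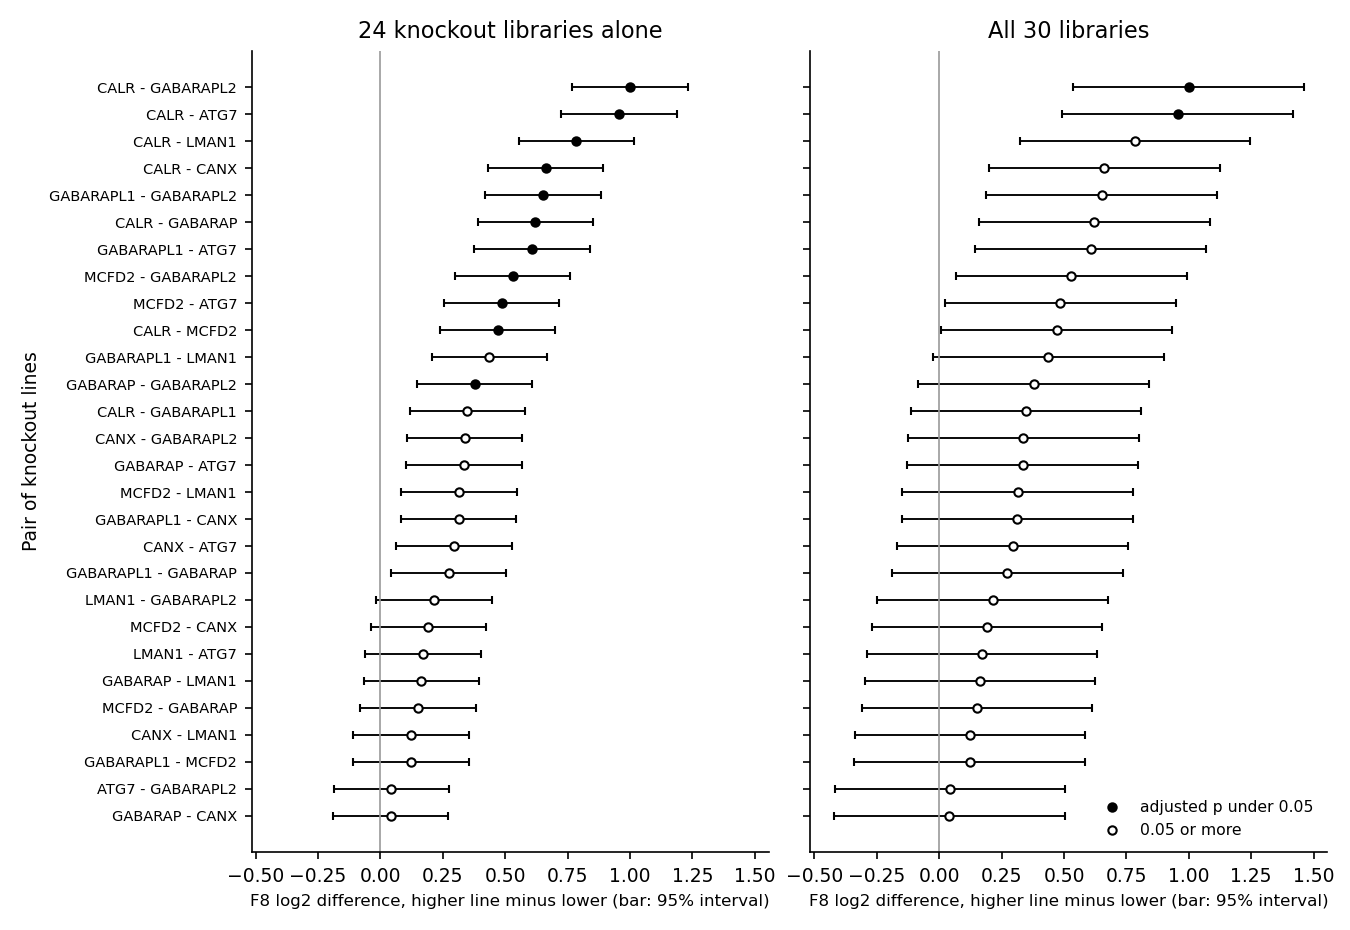
F8 log2 difference of each of the 28 pairs of knockout lines, higher line minus lower, with 95% intervals from the 24 knockout libraries alone (left) and from all 30 libraries (right); filled points have an adjusted p under 0.05. The differences are equal in both panels, the intervals are narrower on the left, and 11 pairs pass there against 2 on the right.

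The difference between lines with a secretory gene and lines with an autophagy gene targeted did not pass. Line means averaged 9.33 over the 4 lines with a secretory gene targeted (CALR, CANX, LMAN1, MCFD2) and 9.08 over the 4 with an autophagy gene targeted, a difference of 0.25 with p = 0.314 in an exact two-sided permutation test over line means, where 70 splits allow 0.0286 at the least. Over libraries, limma gave an adjusted p of 0.218, when 4.86% of all genes passed, and one of 0.00645 on the 24 knockout libraries alone. The share of all genes that passed in the last fit was not counted. Both fits count libraries of 1 line as separate samples, although the lines are the units of this comparison. The LMAN1 and MCFD2 knockouts averaged 9.18 and the CANX and CALR knockouts 9.48, a difference of -0.30, and the ATG7 knockout at 8.85 stood -0.30 from the 9.15 of the 3 GABARAP-family knockouts. Those comparisons have 2 lines against 2 and 1 against 3, for which the smallest exact permutation p are 0.333 and 0.25, and gave 0.667 and 0.75.

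F8 varied more between lines than within them. The 8 line means spanned 1.00 on the log2 scale, 2.00-fold, with an SD of 0.33, while libraries of 1 line had a within-line SD of 0.11. The share of F8 variance that lay between lines was 0.89 over the 24 libraries, against a median of 0.28 over tested genes, and 0.512% of genes had a higher share. A within-line SD smaller than that of F8 was found for 0.864% of all tested genes, whose median was 0.41. It was found for 4.8% of the 375 genes with a mean deposited value within 0.5 of that of F8, whose median was 0.23. The deposited value is per unit of length, so genes at a like value can have fewer or more reads than F8. Neither the within-line SD nor the between-line share was compared at matched reads, on which counting error depends. F8 level had a Pearson r of 0.20 with log2 library size over the 24 libraries (Spearman rho 0.08) and of 0.35 over deviations from line means, both as descriptions.

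The genes that followed F8 were read from Pearson's r over the 24 knockout libraries for 8382 genes with a mean of at least 20 reads. These r describe 8 lines of 3 libraries, which share their cells and library sizes, and carry no p. The median gene had r = -0.03 and the middle 95% of genes ran from -0.58 to 0.56. At r of at least 0.7 stood 38 genes and at -0.7 or below 33.

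RPLP0, a protein of the large ribosomal subunit's stalk that is often used as a reference transcript, was most like F8, with r = 0.89 (rho 0.89). RPLP0 and PCNA below have processed pseudogenes, and how shared reads were assigned is not given in the sources used here. The level of RPLP0 was 7.97, 7.91 and 7.94 in the CALR knockout and 7.24, 7.21 and 7.24 in the GABARAPL2 knockout, with the other 6 lines between. RPLP0 ranged over 0.71 between its highest and lowest line mean. Next came LINC01873, a long noncoding RNA with r = 0.86, ITPRIPL2 with 0.84 and FBXW4, which encodes an F-box protein of ubiquitin ligases, with 0.83. RP11-382B18.1 and RP11-624A21.1, both unconfirmed transcripts of chromosome 15 in the annotation, had 0.83 each. DST, a cytoskeletal linker protein, had 0.82 and WSB1, which carries a SOCS box, 0.81. In 7 of these 8 genes the CALR knockout was the highest line, as for F8; LINC01873 was highest in the MCFD2 knockout at 4.06, against 4.01 in the CALR knockout.

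Running opposite to F8, PCNA, the sliding clamp of DNA replication, had the lowest r, -0.79. Its level was 3.90, 3.61 and 3.88 in the CALR knockout and 5.04, 5.15 and 5.23 in the GABARAPL2 knockout. The zinc finger gene ZNF22 had r = -0.77, MMADHC, which acts in vitamin B12 metabolism, -0.77, and LSM4, an RNA-binding subunit of the LSM ring, -0.76. ATP5E, a subunit of mitochondrial ATP synthase, and CLPP, a mitochondrial protease, had -0.75 each. EXOSC5, a subunit of the RNA exosome, and TMEM19 had -0.74 each. The CALR knockout was the lowest line in all 8 of these genes.

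**Figure D3:**
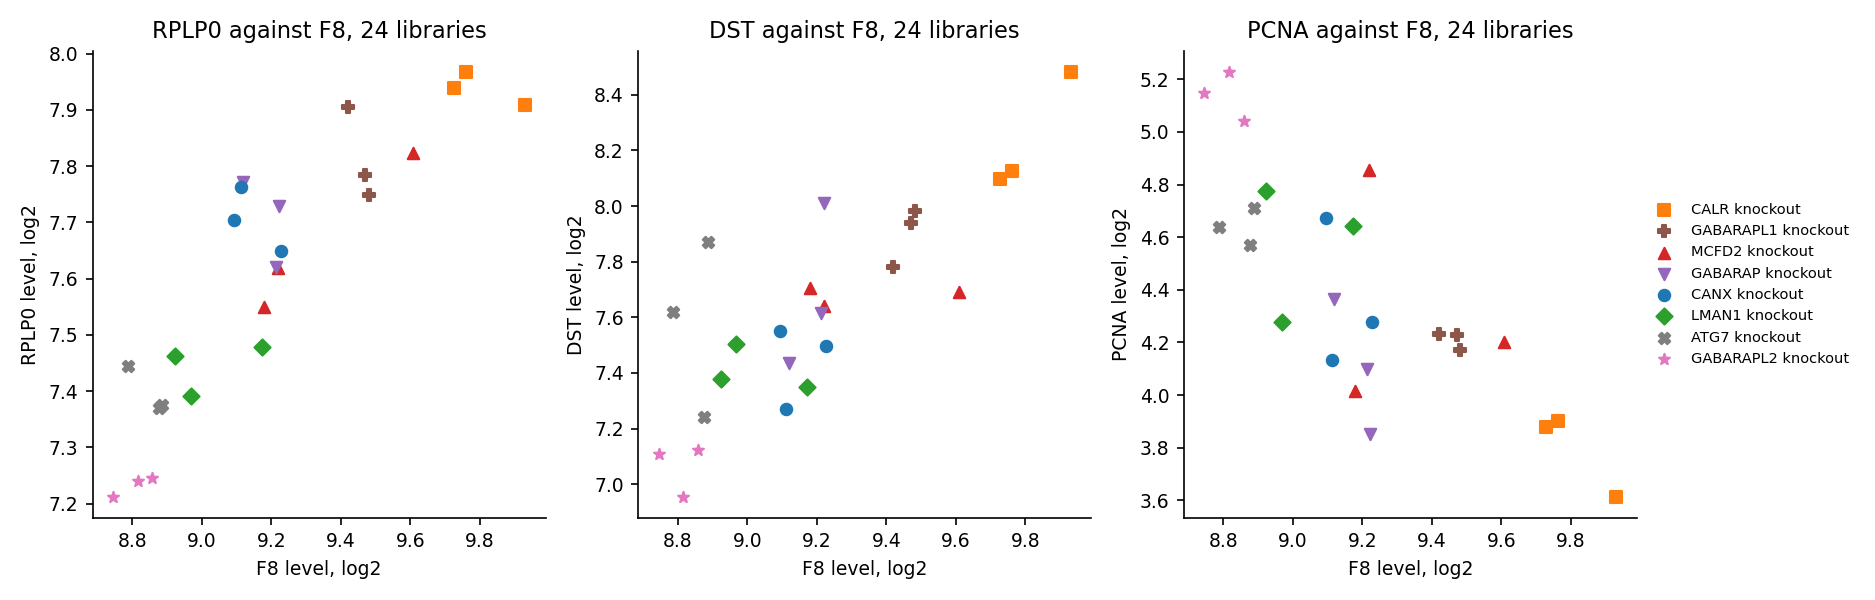
Level of RPLP0, DST and PCNA against the F8 level (log2) in the 24 knockout libraries, by line. RPLP0 and DST rank with F8 (r = 0.89 and 0.82) and PCNA against it (r = -0.79). The CALR and GABARAPL2 knockouts have the extreme line means of F8 and of each gene, while single libraries of other lines lie among theirs for F8 and PCNA.

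The CALR knockout, the highest line for F8, was the highest for 32 of the 38 genes at the positive end and the lowest for 28 of the 33 at the negative end, a count that the choice by r with F8 shapes. Over all 8382 ranked genes it was the highest line in 12.6% and the lowest in 12.3%. Without the CALR knockout, over 21 libraries, RPLP0 kept an r of 0.86 and LINC01873 of 0.87, DST had 0.66 and WSB1 0.63, and PCNA had -0.68 and ATP5E -0.46. Without the 2 libraries farthest from the F8 median, RPLP0 had 0.88, DST 0.72 and PCNA -0.72.

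Within lines the likeness was weaker. Over deviations from the line means RPLP0 had r = 0.37 and PCNA -0.29, and WSB1 turned to -0.15, MMADHC to 0.09 and ATP5E to 0.17. By that measure the genes most like F8 were FMO1, a flavin monooxygenase, at 0.80, the pseudogene HNRNPA3P6 and PPP1CC, a phosphatase catalytic subunit, at 0.76 each, and ERO1A, the oxidase of disulfide formation in the endoplasmic reticulum, at 0.75. The most opposite were PGPEP1 at -0.77, GTF2H2C, which has near-identical copies, at -0.71, and GMPPB and TFAP4 at -0.70 each. Over the 8 line means, FBXW4 (0.97), GOLGB1 (0.97), which encodes the Golgi protein giantin, and HOXB4 (0.95) were among the most like. The most opposite there were VASP (-0.96), ZBTB40 (-0.95), DNAJC5 (-0.95) and GAR1 (-0.94).

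By chromosome, chromosome 12 held 10 of the 38 positive genes (26.3%), against 5.38% of the 8382 genes ranked, chromosome 6 held 6 (15.8% against 5.01%) and chromosome 15 held 4 (10.5% against 3.41%). Chromosome 19 held 9 of the 33 negative genes (27.3%), against 5.89%, and chromosomes 20 and 1 held 6 each (18.2%, against 2.61% and 10.6%). Chromosome X, which carries F8, held 2 of the 38 positive genes (5.26% against 3.59%). Protein-coding genes made up 78.9% of the positive and 97% of the negative genes, and 93.1% of all ranked. The counts were not tested.

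The genes that surround F8 in Xq28 had r with F8 close to those of other genes. None of those tested differed between HEK28 and the parental line by as much as F8 did (8.20). In HEK28 against the parental line 10 of 27 tested neighbours were higher and 1 lower, with a median difference of 0.17 against -0.07 over all genes, beside the 16.7% and 15.1% given above. IRAK1, an interleukin receptor kinase, differed by 1.65, the acetyltransferase NAA10 by 1.37, DKC1, of small nucleolar RNPs, by 1.14 and the ribosomal protein gene RPL10 by 0.98. With HEK28 replicate 3 alone 3 were higher and 0 lower, and DKC1 no longer passed (0.40). In the pooled knockouts against HEK28, 4 of 27 were higher and 4 lower, beside 17.4% and 7.29% of all genes (2 and 7 under quantile normalisation or equal medians, and 1 and 0 with HEK28 replicate 3 alone). No share of all genes was counted with HEK28 replicate 3 alone. The median r of the neighbours with F8 over the 24 libraries was 0.08, against -0.03 over all genes. Within 1 Mb of F8, 24 genes were tested and their r ran from -0.50 (LAGE3) to 0.43 (FAM3A). F8A1 and FUNDC2 overlap F8 on the other strand, F8A1 has near-identical copies, and whether reads were counted by strand is not given in the sources used here, so their reads and those of F8 cannot be told apart where they overlap. F8A1 (chrX:154886349-154888061) had 683, 26 and 27 reads in the knockouts, HEK28 and the parental line, and FUNDC2 (chrX:155025980-155060303) had 1858, 65 and 134. The parental line had reads of both overlapping genes beside 2 of F8.

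Other genes of coagulation were few. Of 31 listed for the purpose, 12 were in the table and 8 tested. In HEK28 against the parental line 3 were lower and 1 higher, when 15.1% of all genes were lower and 16.7% higher. The higher one was F12 (5.92 ± 0.83 against 4.26 ± 0.70, limma adjusted p = 0.00249), which encodes factor XII. Lower there were TFPI, the tissue factor pathway inhibitor (5.67 ± 1.43 against 7.91 ± 0.33, limma adjusted p = 0.000404), GGCX, the vitamin K-dependent carboxylase, by 0.95, and the vitamin K reductase VKORC1L1 by 1.20. With HEK28 replicate 3 alone VKORC1L1 passed (-1.81), while F12 (0.70), TFPI (-0.69) and GGCX (-0.87) did not. In the pooled knockouts TFPI was 1.92 above HEK28 (7.60 ± 0.53, n = 24, against 5.67 ± 1.43, n = 3, limma adjusted p = 0.000422) and VKORC1 0.51 below it. These were 1 higher and 1 lower of the 8, beside 17.4% and 7.29% of all genes. TFPI rested on 8 reads in HEK28 and was 0.38 above HEK28 replicate 3 alone (limma adjusted p = 0.705), where 0 of the 8 genes passed. The share of all genes that passed was not counted in that fit. Of the 8 genes, 6 had enough reads to be ranked against F8, with a median r of -0.20.

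Among genes that fold and carry factor VIII, the shares that passed were near those of all genes where all 3 HEK28 libraries were used. With HEK28 replicate 3 alone no share of all genes was counted. Of 39 tested, 7 passed upwards and 5 downwards between HEK28 and the parental line (16.7% and 15.1% of all genes), with a median difference of 0.01 against -0.07 over all genes. These counts were 4 and 2 with HEK28 replicate 3 alone. The BiP gene HSPA5 stood at 7.43 ± 0.16 in HEK28 and 7.93 ± 0.05 in the parental line, lower by 0.50 (limma adjusted p = 0.00368), and HSP90B1, the chaperone GRP94, was higher by 0.85 (limma adjusted p = 0.000741). Neither passed with HEK28 replicate 3 alone (-0.42 and 0.58). In the pooled knockouts 7 were higher and 3 lower than in HEK28, beside 17.4% and 7.29% of all genes (5 and 5 under quantile normalisation, 5 and 6 with equal medians, and 0 and 0 with HEK28 replicate 3 alone). The list's median r with F8 was 0.03 and 0 of its 37 ranked members reached 0.7 in size. HSPA5 had the largest, 0.63, which was 0.01 without the CALR knockout. CALR itself had -0.58, and 0.28 without its own knockout. SURF4, a cargo receptor of the endoplasmic reticulum, had -0.43.

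Genes of the unfolded protein response were 1 higher and 9 lower of 25 in HEK28 against the parental line, with a median of -0.45 against -0.07 over all genes, of which 16.7% were higher and 15.1% lower. With HEK28 replicate 3 alone 2 were higher and 5 lower. ATF3, a stress transcription factor, was lower by 2.82 (2.24 ± 0.14 against 5.06 ± 0.21, limma adjusted p = 2.87e-07) and MANF, a secreted stress protein, by 1.97. With HEK28 replicate 3 alone ATF3 passed (-2.76) and MANF did not (-0.45). In the pooled knockouts 5 were higher and 2 lower than in HEK28, beside 17.4% and 7.29% of all genes (3 and 3 under quantile normalisation or equal medians), and their median r with F8 was -0.05. Of 19 ATG8-family and conjugation genes 0 passed upwards and 4 downwards in HEK28 against the parental line, beside 16.7% and 15.1% of all genes (0 and 2 with HEK28 replicate 3 alone). In the pooled knockouts 5 were higher and 1 lower, beside 17.4% and 7.29% of all genes (3 and 1 under quantile normalisation, 3 and 2 with equal medians). The receptor OPTN stood 3.30 lower in HEK28 against the parental line (limma adjusted p = 1.25e-07) on 6 reads, and -3.98 with HEK28 replicate 3 alone. The median r of that list with F8 was 0.14, and its members ran from ATG3, a conjugating enzyme, at -0.60 to OPTN at 0.57. Without the CALR knockout ATG3 had -0.54 and OPTN 0.38. With HEK28 replicate 3 alone the counts between the pooled knockouts and HEK28 were 0 and 0 for the unfolded protein response and 1 and 0 for the ATG8 list. The share of all genes that passed was not counted in the fits with HEK28 replicate 3 alone. Of the 8 targeted genes, 7 were ranked, with a median r of 0.24. The HEK293 markers had the highest median r of the lists, 0.55 over 5 ranked members, with KRT18 at 0.57, CDH2 at 0.56, KRT8 at 0.55, NEFL at 0.10 and VIM at -0.38. Without the CALR knockout these were 0.38, 0.34, 0.30, 0.19 and -0.33.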

How the data were processed

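Per the labels' protocols, RNA of the 30 samples was read by 3' RNA-seq. Tools named in the submitters' processing notes are TopHat2, Bowtie, cutadapt and FastQC, with hg38 as the genome build. The read counter, the annotation and the normalisation formula are missing from them and were not given in the sources used here. The authors deposited 1 log2 value per gene and sample. From the values themselves, each is the log2 of whole reads plus 0.5 over gene length and library size. Reads were recovered from these steps for 16900 of 16975 genes. Among those genes, rounding of the deposited digits left an error under 0.25 reads in 99.6% of values, and 100% of these lay within that error of a whole number. Recovered libraries held 148100 to 3893447 reads. For the comparisons, the model of the deposited log2 values came from limma 3.58.1 under R 4.3.3 (1 mean per group, all 30 samples, moderated spread with trend and robust settings, Benjamini-Hochberg adjustment over 11337 genes within each comparison, threshold 0.05). A gene was tested with at least 10 reads at median depth (16.6 CPM) in 3 or more samples and 15 reads in all. F8 was found by symbol and matched RefSeq's 2 promoters (GRCh38.p14) and the gene coordinates of GENCODE (GRCh38).

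Data were simulated for 11262 genes, of which 100 had a 2-fold and 100 a 4-fold change. The median dispersion served for all genes, and no simulated library stood apart from its group. The CALR knockout against the other 7 recovered 54% of 2-fold and 100% of 4-fold changes with 4 unchanged genes called. The pooled knockouts against HEK28 recovered 71% and 100%, with 87 unchanged genes called. The closest pair of replicates differed by 1.52 times the sampling noise (chi-square per degree of freedom), so every sample was counted once. That value does not show whether the replicates were separate cultures. Read ratios have exact counting intervals, which cover counting error only.

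The rule for named genes took F8, the 8 targets, the 8 highest and 8 lowest genes by Pearson's r with F8 over the 24 knockout libraries (mean of at least 20 reads), the 4 and 4 over line means and over deviations from them, up to 8 genes by level among those with at most 2 parental reads, and tested members of the gene lists, of which the text names a few chosen after their values were seen. One gene that the rule took is not reported here. F8 and the lists were chosen with earlier results of these data known. Alternatives were voom weights on the recovered reads, plain moderation, an offset of 2 reads, quantile normalisation, equal medians, no filter on low values, a replicate block, fits on the compared groups alone, each replicate left out, and HEK28 without replicates 1 and 2. Fits without the parental samples, the 24 knockout libraries alone for pairs and for secretory against autophagy lines, library size from total reads, and r within lines and over line means were added after the data were seen. No table of protein sequences was used here.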

Additional observations from a re-analysis of the deposited data

Results flagged for a closer look

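The knockouts' F8 differences from HEK28 were unequal between lines by limma's test of the difference itself, which sets the 2 knockouts against each other because HEK28 is common to both. F8 exceeded HEK28 by 1.52 in the CALR knockout and by 0.52 in the line labelled GABARAPL2 knockout, a gap of 1.00 on the log2 scale (limma adjusted p = 0.0103). Its difference from HEK28 was 0.56 in the ATG7 knockout, 0.96 below that of the CALR knockout (limma adjusted p = 0.018). These were the 2 of 28 pairs that passed in the model of all 30 libraries.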

How the results depend on the processing

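Leaving out HEK28 replicates 1 and 2 moved the pooled F8 difference from HEK28 to 0.71 (limma adjusted p = 0.227). The same step left F8 at 0.65 in the CANX, 0.84 in the MCFD2, 0.69 in the GABARAP and 0.96 in the GABARAPL1 knockout, which no longer passed. Fits on only the 6 libraries compared ended the calls of CANX (0.86), CALR (1.52), MCFD2 (1.05), GABARAP (0.90) and GABARAPL1 (1.17). F8 newly passed against HEK28 for LMAN1 with voom weights (0.81), an offset of 2 reads (0.72) and no parental libraries (0.73), for GABARAPL2 in the same 3 (0.55, 0.51 and 0.52) and for ATG7 with voom weights (0.59) and no parental libraries (0.56). Against the other 7 knockouts F8 newly passed with voom weights for MCFD2 (0.21), GABARAPL1 (0.28), GABARAPL2 (-0.45) and ATG7 (-0.41), for GABARAPL2 also with an offset of 2 reads, on the 24 libraries alone and without the parental ones (-0.45 each), and for ATG7 in the last 2 of these (-0.40). No share of all genes was counted for these newly passing calls. Against the other 7, GABARAP stood at 0.036 with equal medians, against -0.02 as deposited, and from -0.037 to 0.014 without single replicates, with no call. The F test gave 3.83 with plain moderation (limma adjusted p = 0.0528). Of 28 pairs, 15 passed with voom weights, 4 with an offset of 2 reads, 11 on the 24 knockout libraries, 6 in fits of 6 libraries and 3 each with quantile normalisation and with total reads as library size. The secretory against autophagy difference of 0.25 passed with limma on the 24 libraries alone, a fit that counts libraries of 1 line as separate samples. Over line means it did not pass (exact permutation p = 0.314).

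Without single replicates, F8 in HEK28 against the parental line ran from 7.79 to 8.53, and F8 in the knockouts against HEK28 from 0.78 to 1.02 (pooled), 0.72 to 0.96 (CANX), 1.38 to 1.62 (CALR), 0.60 to 0.84 (LMAN1), 0.91 to 1.15 (MCFD2), 0.76 to 1.00 (GABARAP), 1.03 to 1.27 (GABARAPL1), 0.38 to 0.62 (GABARAPL2) and 0.43 to 0.67 (ATG7). CALR against the other 7 ran from 0.63 to 0.73, F from 3.22 to 4.33, the passing pairs from 0 to 2 and the genes at r of 0.7 or more in size from 35 to 108. That number was 71 in the report, 116 with quantile normalisation, 31 without the CALR knockout, 28 without the 2 farthest libraries, 107 with library size regressed out, 724 over line means and 14 within lines, where r turned to -0.15 for WSB1, 0.091 for MMADHC and 0.17 for ATP5E. Where nothing above names a cause, the cause was not tested.

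Replicate numbers do not pair the samples: deviations of samples with the same number correlated from -0.25 to 0.38 (median -0.0078, 135 pairs), and 10 of 30 libraries correlated best with their own number. A replicate block changed no F8 call (pooled 0.91, limma adjusted p = 0.000941; CALR against the other 7, 0.69, 0.0305; F 4.24, 0.04). Counting error alone corresponds to an SD of F8 of 0.031 to 0.068 in the knockout lines and 0.11 in HEK28, and in the parental line 0 to 2 reads set the level. With an offset of 2 reads HEK28 stood 6.65 above the parental line.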
